A study of Mus musculus with 7 samples.

Results

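The 9 genes described here encode subunits of cardiac sodium, calcium, delayed rectifier potassium and pacemaker channels. They were chosen by symbol, with earlier results of these data known. The sodium channel gene was Scn4b, and those of the L-type calcium channel were Cacna1c, Cacnb2 and Cacna2d1. Kcnq1, Kcne1 and Kcnh2 stood for the delayed rectifiers, and Hcn2 and Hcn4 for the pacemaker channels. The arrays named 21154 genes in all. Of the 9, 7 had a probe that passed the filter on dim signal and 2, Kcne1 and Hcn4, did not. Gene expression was measured on 1-colour Agilent microarrays in the apex of 7 hearts from male C57BL/6 mice, 3 knockout (KO) and 4 control. KO mice were homozygous for a floxed p38α gene (Mapk14, a stress-activated kinase) and heterozygous for α-MHC-MerCreMer, a Cre recombinase that is driven by a cardiomyocyte promoter and enters the nucleus when it binds tamoxifen. Control mice carried the floxed p38α alleles without the Cre. Mice of both groups received hydroxytamoxifen at 500 µg daily over 10 days, starting when 6 weeks old. They then received angiotensin II, a peptide that constricts vessels and drives cardiac growth, by osmotic minipump (1.5 mg/kg daily, 48 h), and were 3 months old. Only KO hearts carried MerCreMer, so loss of p38α and presence of the Cre cannot be told apart, and no mice without angiotensin II were analysed here. The apex is ventricular tissue of mixed cells, and in such bulk RNA fewer cells of a type and less RNA per cell cannot be told apart.

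Voltage-gated channels shape each heartbeat. Sodium channels carry the rapid upstroke of the ventricular action potential, L-type calcium channels bring in the calcium that triggers contraction, and delayed rectifier potassium channels repolarise the membrane. HCN channels open on hyperpolarisation and carry the pacemaker current of the sinoatrial node, where HCN4 is the main form. Each channel is a pore-forming protein with accessory subunits that set its gating and its number at the surface. In the adult mouse ventricle other potassium currents do most of the repolarising, and the currents through Kcnq1 and Kcnh2 products are small compared with those of human ventricle.

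The 7 arrays shared a slide, and on each of them 46.0% to 49.6% of 55681 probes gave a signal well above background. Signals are given as multiples of the array's 75th percentile signal, and tests were run on log2 of these with limma, with Benjamini-Hochberg adjustment over 22341 features and a threshold of 0.05. The number of arrays limits the precision. Mapk14 signals, by a probe whose place relative to the deleted part is not given in the sources used here, were 13.4, 13.5 and 13.0 in KO hearts 1, 2 and 3, against 11.5, 10.6, 11.0 and 12.7 in control hearts 1 to 4. The log2 difference was 0.22 ± 0.12 (SE, adjusted p = 0.202), so this probe did not check the deletion. The array held 2 probes for Mapk14 and 3 for Esr1, and only the brightest kept probe of each is given here. Esr1, whose ligand-binding domain is part of MerCreMer, was well above background in 3 of 3 KO hearts and in 0 of 4 control hearts. Its signals were 0.566, 1.05 and 22.6 in KO hearts 1, 2 and 3, against 0.0138 to 0.0241 in control hearts. Its KO mean was at least 40.7-fold higher than the control mean (adjusted p = 0.0123), a bound that KO heart 3 carries and that was 13.2-fold without it. Whether its probe lies in the part shared with the transgene is not given in the sources used here.

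Of the 7 channel genes measured, 4 were lower in KO hearts (Scn4b, Cacna1c, Kcnq1 and Kcnh2), 0 were higher and 3 did not pass (Cacnb2, Cacna2d1 and Hcn2). Of all 22341 features, 25.2% passed in either direction: 15.0% of all features were lower in KO and 10.2% of all features were higher. All 7 were well above background in every heart of both groups, so none passed the filter through 1 group alone. The median log2 difference of the 7 was -0.90, against -0.015 over the 13696 named genes tested. The KO and control signals of 6 of the 7 did not overlap and were lower in KO, against 21.4% of features. Because the genes were chosen with earlier results of these data known, these contrasts with all features are descriptive only. The count of 4 depended on single hearts: it was 0 without KO heart 1, 1 without KO heart 2, 1 without control heart 1, 1 without control heart 3 and 2 without control heart 4. It was 4 without KO heart 3 and 3 without control heart 2. Counts over all features also changed with the heart left out. Of 22341 features, 3356 were lower in KO with all hearts, 49 without KO heart 1 and 842 without KO heart 2. Without control heart 1, 3 or 4 the number was 1990, 1740 or 1447. Without KO heart 3 it was 3270, and without control heart 2 it was 4128.

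**Figure D1:**
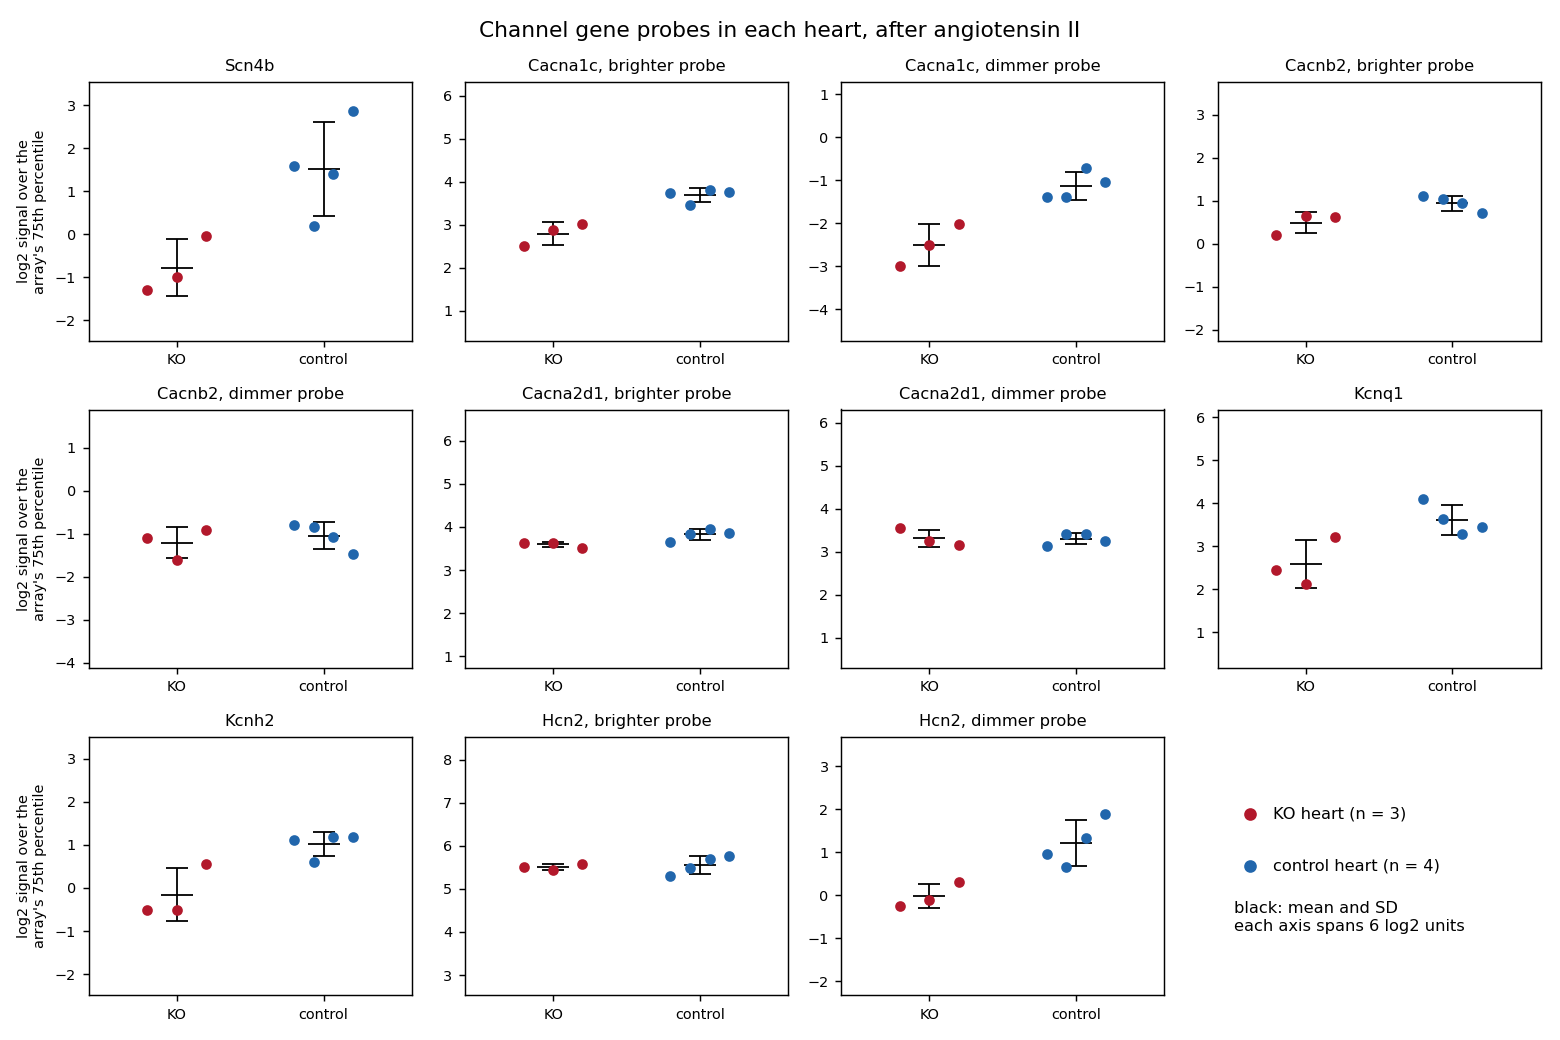
Each panel shows 1 probe of a channel gene, with the log2 signal over the array's 75th percentile on the y axis and 1 point per heart, KO (n = 3) left and control (n = 4) right, with mean and SD in black. Every panel spans 6 log2 units. Scn4b shows both the widest gap between group means and the widest spread among control hearts, while the brighter Hcn2 probe overlaps between groups.

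Scn4b encodes the sodium channel β4 subunit, a single-pass membrane protein that is disulfide-linked to the pore and shifts the voltage at which it opens. Its signals were 0.408, 0.499 and 0.978 in KO hearts 1, 2 and 3, against 3.00, 1.14, 2.62 and 7.22 in control hearts 1 to 4. All 3 KO hearts lay below the lowest control, and the control hearts themselves spanned 6.32-fold. The log2 means were -0.78 ± 0.66 in KO and 1.51 ± 1.09 in control hearts (SD, n = 3 and 4), a difference of -2.28 ± 0.58 (SE, adjusted p = 0.0282). That is 4.86-fold lower in KO, with a 95% interval of 1.92-fold to 12.3-fold. An exact permutation test (two-sided, 35 ways to choose the 3 KO hearts) gave p = 0.0571, where the design allows no p below 0.0286. The adjusted p was 0.116 without KO heart 1, 0.080 without KO heart 2, 0.061 without control heart 1 and 0.0604 without control heart 3, and the difference stayed between -2.72 and -1.83 in all 7 leave-one-out fits.

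The Scn4b promoter is shown because Scn4b had the largest difference among the 7 genes. The 250 bases before its annotated start (RefSeq, GRCm38.p6, chr9:45138374-45138623, plus strand) held none of 7 motifs searched on both strands, so no letters are in capitals. The motifs were AGATAA (of GATA factors), the E-box CACGTG, the core AAGGTCA of the oestrogen-related receptor element, the GC box GGGCGG, the TATA box TATAAA, the cyclic AMP element TGACGTCA and the AP-1 motif TGANTCA. In 32851 such windows of all genes these were found in 9.99%, 6.02%, 4.08%, 32.7%, 12.4%, 1.55% and 6.75%, in the same order. The window held 66.0% G and C, against a median of 52.4% over all windows.
Scn4b: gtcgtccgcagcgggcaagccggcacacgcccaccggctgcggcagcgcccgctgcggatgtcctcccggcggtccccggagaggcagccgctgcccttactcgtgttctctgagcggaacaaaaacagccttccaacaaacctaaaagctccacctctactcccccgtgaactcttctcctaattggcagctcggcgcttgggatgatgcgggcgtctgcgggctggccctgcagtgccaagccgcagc

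Of 11 measured genes (16 on the array) for other pore, β and associated proteins, 2 were lower in KO, 0 were higher and 9 did not pass, with a median of -0.41. Over all features 15.0% were lower in KO and 10.2% higher. Rangrf encodes MOG1, which promotes surface delivery of sodium channels, and was lower in KO (-0.93 ± 0.15, adjusted p = 0.0126). Scn2b, the β2 subunit, was lower (-0.97 ± 0.26, adjusted p = 0.0332). It was well above background in only 1 of 3 KO hearts, against 4 of 4 control hearts, so it passed the filter through control hearts alone. With normexp background correction Scn2b did not pass (-0.35, adjusted p = 0.0714). Rangrf did not pass without KO heart 1, and Scn2b without KO heart 1 or 2 or control heart 1, 3 or 4. Gpd1l (-0.49), Scn8a (0.35) and Scn4a (-0.41) had the lowest adjusted p-values among those that did not pass, 0.066, 0.152 and 0.224.

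Cacna1c encodes Cav1.2, the pore of the cardiac L-type calcium channel. Signals of its brighter probe were 5.65, 7.28 and 8.08 in KO hearts 1, 2 and 3, against 13.4, 11.0, 13.9 and 13.6 in control hearts 1 to 4. The groups were clearly apart, with the highest KO heart below the lowest control. The log2 means were 2.79 ± 0.27 in KO and 3.69 ± 0.16 in control hearts (SD, n = 3 and 4), a difference of -0.90 ± 0.17 (SE, adjusted p = 0.0148), or 1.87-fold lower in KO. The dimmer probe read 0.127, 0.175 and 0.247 in KO hearts, against 0.380, 0.382, 0.606 and 0.484 in control hearts, with a difference of -1.36 ± 0.26 (adjusted p = 0.0153). Both probes gave the same direction with no overlap, and each had an exact permutation p of 0.0286, the smallest the design allows. Of 11 kept probes of the 7 genes, 6 were lower in KO, against 15.1% of all kept probes. The brighter probe's difference was -0.75 (adjusted p = 0.0733) without KO heart 1 and passed in the other 6 leave-one-out fits. The dimmer probe did not pass without KO heart 1 or KO heart 2 (adjusted p = 0.073 and 0.0521).

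Cacnb2 encodes the β2 subunit, which binds the cytoplasmic side of Cav1.2 and carries it to the membrane. Its brighter probe read 1.16, 1.56 and 1.55 in KO hearts, against 2.16, 2.05, 1.92 and 1.63 in control hearts. The groups did not overlap, yet the log2 difference of -0.45 ± 0.17 (95% interval -0.84 to -0.07) had an adjusted p of 0.0781. The difference was uneven across the slide, -0.86 in the row holding KO heart 1 and control hearts 1 and 2, and -0.19 in the row holding KO hearts 2 and 3 and control hearts 3 and 4. It passed with array weights (-0.72, adjusted p = 0.00395), a setting under which 11997 of 22341 features passed, 6638 of them lower in KO. The dimmer Cacnb2 probe read 0.466, 0.329 and 0.531 in KO hearts, against 0.579, 0.562, 0.479 and 0.359 in control hearts. These overlapped, with a difference of -0.17 ± 0.23 (adjusted p = 0.604).

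Cacna2d1 encodes α2δ1, the extracellular subunit that promotes surface expression of the channel and binds gabapentin. Its brighter probe read 12.3, 12.4 and 11.5 in KO hearts, against 12.6, 14.3, 15.6 and 14.6 in control hearts. The groups did not overlap by a narrow margin, and the difference of -0.24 ± 0.13 (95% interval -0.53 to 0.06) did not pass (adjusted p = 0.189). The dimmer probe, which answers to another transcript record of the gene, read 11.7, 9.46 and 8.87 in KO hearts, against 8.84, 10.7, 10.6 and 9.49 in control hearts. Those overlapped, with a difference of 0.01 ± 0.15 (95% interval -0.34 to 0.35, adjusted p = 0.970).

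Set against Cacna1c within each array, the accessory subunits were relatively higher in KO hearts. Cacna1c itself differed by -0.90, against a median of -0.06 over all features. Most features would thus be higher in KO relative to it, and the ratios are not particular to these subunits. Taking each brighter probe relative to its control mean, log2 of Cacnb2 over Cacna1c was 0.46, 0.52 and 0.37 in KO hearts, against 0.11, 0.32, -0.12 and -0.31 in control hearts, a ratio of 1.37-fold. For Cacna2d1 over Cacna1c the values were 0.99, 0.63 and 0.37 in KO hearts, against -0.22, 0.24, 0.02 and -0.04 in control hearts, a ratio of 1.58-fold. In neither pair did the groups overlap, and the share of all features for which this holds over Cacna1c was not counted. The ratios show unequal change between probes, not a subunit count, and were not tested.

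**Figure D2:**
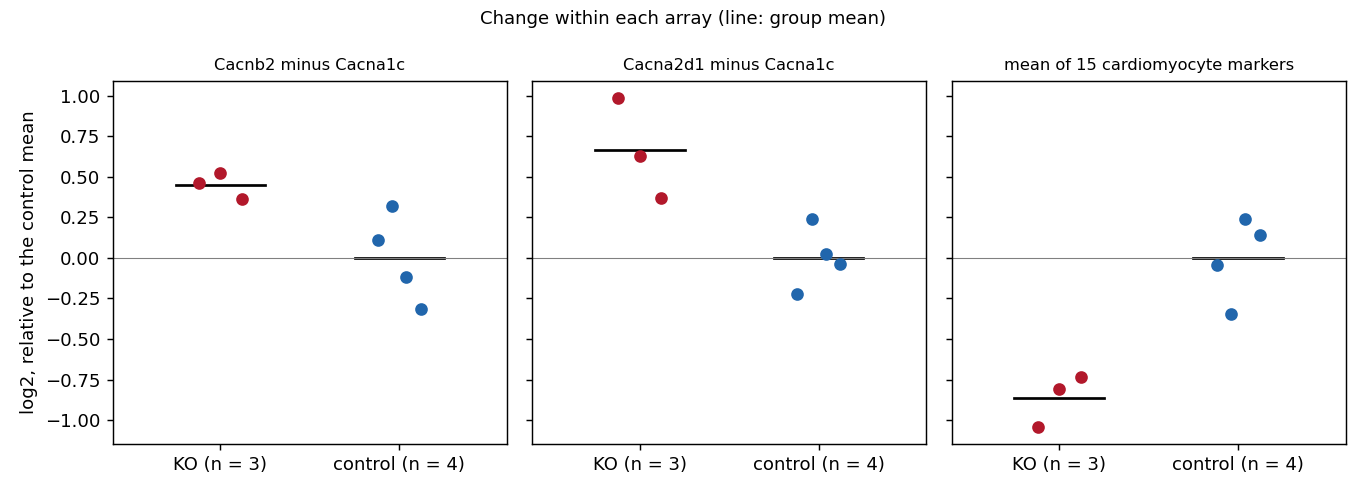
The left and middle panels plot log2 of Cacnb2 over Cacna1c and of Cacna2d1 over Cacna1c, and the right panel the mean log2 level of 15 cardiomyocyte markers, all relative to the control mean (y axis), with 1 point per heart, KO left and control right, and a line at each group mean. Both ratios average above 0 in KO hearts (0.45 and 0.66), and the marker mean lies between -1.04 and -0.73 there.

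Among 13 measured genes for other calcium channel subunits (27 on the array), 5 were lower in KO, 0 were higher and 8 did not pass, with a median of -0.41. The shares over all features were 15.0% lower and 10.2% higher. Cacna1g encodes Cav3.1, a low-voltage-activated T-type pore found in nodal and conduction tissue. Its signals were 0.166, 0.154 and 0.292 in KO hearts, against 0.667, 0.999, 1.26 and 0.713 in control hearts. It was 4.51-fold lower in KO without overlap (-2.17 ± 0.30, adjusted p = 0.0118), and its second probe differed by -2.59. Cacna1h, the T-type pore Cav3.2, was lower by the test (-1.0 ± 0.30, adjusted p = 0.0432) though its groups overlapped. Cacna1s, the L-type pore of skeletal muscle, differed by -1.52 ± 0.39 (adjusted p = 0.0289), and Cacna2d2, the α2δ2 subunit, by -1.09 ± 0.20 (adjusted p = 0.0148). Cacng6, a γ subunit, differed by -1.10 ± 0.30 (adjusted p = 0.033). It was well above background in 1 of 3 KO hearts and 4 of 4 control hearts, so it passed the filter through control hearts alone. With normexp Cacng6 reached -0.46 (adjusted p = 0.0537). Cacna1g did not pass without KO heart 1 (adjusted p = 0.0633), Cacna2d2 without KO heart 1 or 2, Cacna1h without KO heart 1 or 2 or control heart 2, 3 or 4, and Cacna1s without any KO heart or control heart 3 or 4. Cacng6 passed in 1 leave-one-out fit, that without control heart 2. Cacna1i (-0.48), Cacna1a (-0.30) and Cacnb1 (0.28) had the lowest adjusted p-values among those that did not pass, 0.0909, 0.145 and 0.152.

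Kcnq1 encodes Kv7.1, the pore of the slow delayed rectifier, which mutations link to long QT syndrome. Its signals were 5.48, 4.35 and 9.24 in KO hearts 1, 2 and 3, against 17.1, 12.4, 9.67 and 10.9 in control hearts 1 to 4. KO heart 3 lay just below control heart 3, and the other KO hearts were well below every control. The log2 means were 2.59 ± 0.56 in KO and 3.61 ± 0.36 in control hearts (SD, n = 3 and 4), a difference of -1.02 ± 0.29 (SE, 95% interval -1.69 to -0.34, adjusted p = 0.0397), or 2.02-fold lower in KO. The exact permutation p was 0.0286. The call was the least stable of the 4: it passed in 1 of 7 leave-one-out fits, that without KO heart 3 (adjusted p = 0.0139), and did not pass with median centring (-0.93, adjusted p = 0.0679). Within slide rows the difference was -1.41 and -0.69.

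Kcne1 encodes minK, the single-span subunit that slows Kv7.1 into the slow delayed rectifier current. Its probe was not well above background in any heart, with processed signals of 5.24, 8.46 and 9.73 in KO hearts, against 5.75, 6.76, 5.54 and 13.4 in control hearts, in scanner units before scaling. No fold is given, and the Kcne1 to Kcnq1 ratio could not be formed.

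Kcnh2 encodes ERG1, the pore of the rapid delayed rectifier and the target of many drugs that lengthen the QT interval. Its signals were 0.700, 0.700 and 1.47 in KO hearts 1, 2 and 3, against 2.16, 1.53, 2.28 and 2.26 in control hearts 1 to 4. KO heart 3 came close to control heart 2, and the other KO hearts were well below. The log2 means were -0.16 ± 0.62 in KO and 1.02 ± 0.28 in control hearts (SD, n = 3 and 4), a difference of -1.18 ± 0.29 (SE, 95% interval -1.85 to -0.51, adjusted p = 0.0259), or 2.27-fold lower in KO, with an exact permutation p of 0.0286. The adjusted p was 0.111, 0.0799, 0.0589, 0.0626 and 0.0663 without KO heart 1, KO heart 2 and control hearts 1, 3 and 4.

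Of 6 measured genes for other delayed rectifier subunits and partners (16 on the array), 0 were lower and 1, Kcne4, was higher in KO, with a median of -0.16. Of all features, 15.0% were lower and 10.2% higher. Kcne4 encodes an accessory subunit that inhibits Kv7.1 currents in expression systems. Its signals were 0.652, 0.635 and 0.483 in KO hearts, against 0.288, 0.254, 0.205 and 0.180 in control hearts. The groups were well apart, and Kcne4 was 2.56-fold higher in KO (1.36 ± 0.20, adjusted p = 0.0123, or 0.065 without KO heart 1). Akap9, the scaffold yotiao that brings protein kinase A to Kv7.1, differed by -0.38 and just missed the threshold (adjusted p = 0.0537). Kcnh4 (-0.53) and Kcne1l, also known as Kcne5 (-0.52), did not pass (adjusted p = 0.149 and 0.168). The 2 kept Kcne1l probes disagree: the dimmer one was lower in KO (-1.45 ± 0.32, adjusted p = 0.0197) and their mean gave -0.99 (adjusted p = 0.0163), so the count of 0 lower holds for the brightest probe of each gene.

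Hcn2 encodes the main HCN pore of ventricular myocytes. Its brighter probe read 45.2, 43.4 and 48.1 in KO hearts 1, 2 and 3, against 39.3, 44.6, 52.0 and 54.5 in control hearts 1 to 4. The groups overlapped, with a difference of -0.05 ± 0.15 (SE, 95% interval -0.40 to 0.30, adjusted p = 0.808). The dimmer probe, filed under the same transcript record, read 0.844, 0.930 and 1.23 in KO hearts, against 1.93, 1.57, 2.52 and 3.72 in control hearts. There every KO heart was below every control, with a difference of -1.22 ± 0.30 (adjusted p = 0.0241), or 2.34-fold lower in KO. The exact permutation p of the dimmer probe was 0.0571. This probe did not pass without KO heart 1, KO heart 2 or control heart 3 (adjusted p = 0.103, 0.0697 and 0.0587). The 2 probes disagree on whether Hcn2 differed, their mean gave -0.64 (adjusted p = 0.0598), and where each lies in the transcript is not given in the sources used here. The direction of the brighter probe's small difference turned with median centring (0.04) and quantile normalization (0.02).

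The Hcn2 promoter is shown because it held AAGGTCA, the only window of the 10 found for 7 of the 9 genes that did. The 250 bases before its start (RefSeq, GRCm38.p6, chr10:79716384-79716633, plus strand) held 2 matches to AAGGTCA and 3 to GGGCGG, all as reverse complements, in capitals below. They also held 70.4% G and C. A match is a run of letters, not a bound site.
Hcn2: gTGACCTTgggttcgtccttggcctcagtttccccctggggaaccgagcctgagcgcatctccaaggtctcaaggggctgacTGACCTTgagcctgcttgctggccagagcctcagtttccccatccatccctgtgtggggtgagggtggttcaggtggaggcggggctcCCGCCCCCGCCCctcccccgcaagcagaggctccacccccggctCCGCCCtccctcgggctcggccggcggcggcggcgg

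Hcn4, the main pacemaker pore of the sinoatrial node, was not well above background in any heart. Its processed signals before scaling were 9.26, 5.32 and 5.97 in KO hearts, against 5.79, 5.78, 5.62 and 7.29 in control hearts, and no fold is given. Of 2 other pacemaker genes on the array (Hcn3 and the HCN trafficking protein Pex5l), 0 passed the filter. The nodal and conduction markers Shox2, Isl1 and Cntn2 were likewise not measured, and of the other 4 such markers 1, the conduction transcription factor Irx3, was lower in KO (-1.13, adjusted p = 0.0094). The share of all features lower in KO was 15.0%. Irx3 signals were 4.42 to 4.47 in KO hearts, against 8.92 to 10.9 in control hearts. The summed level of all 4 was 10.3 to 11.5 in KO hearts, against 15.4 to 21.0 in control hearts. Irx3 alone carries that separation: the 3 that did not pass summed to 5.88 to 7.04 in KO hearts, against 6.23 to 10.1 in control hearts, which overlap. Their part in the channel results was not tested.

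**Figure D3:**
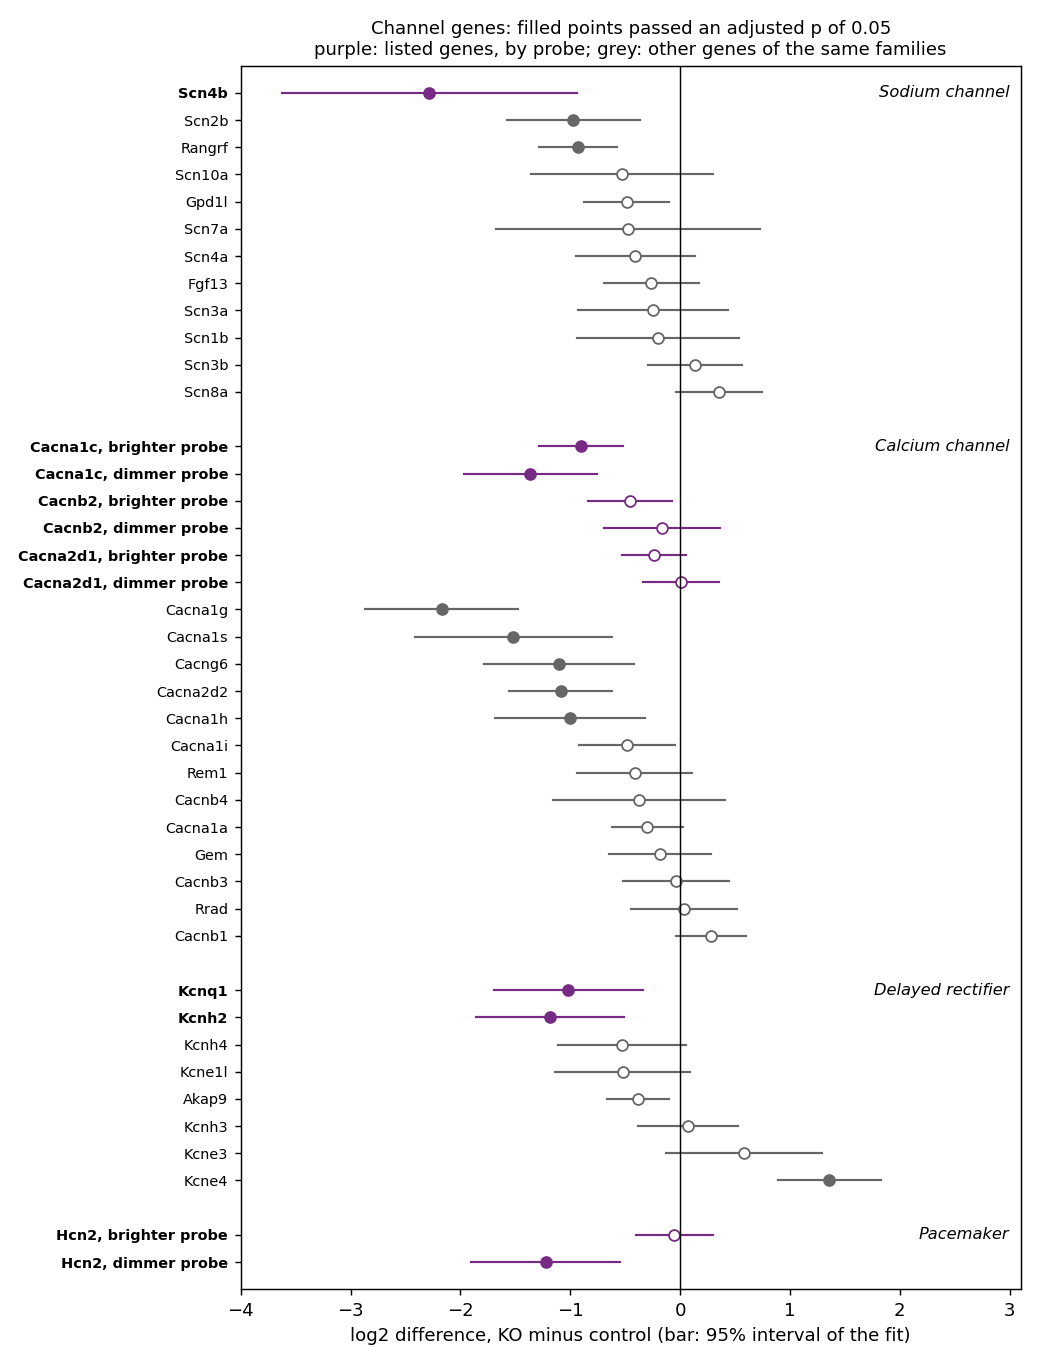
The x axis is the log2 difference, KO minus control, with 95% intervals of the fit, for the measured genes reported from the 4 channel families, down the page. The listed genes are in purple, by probe, and the other genes in grey, with filled points for an adjusted p under 0.05. Most filled points lie left of 0, from Scn4b at -2.28 inward, and Kcne4 is the filled point on the right.

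On average, cardiomyocyte markers were also lower in KO hearts. Whether they varied with the channel genes from heart to heart was not tested. Of 15 sarcomere, calcium handling and energy genes, 9 were lower in KO, 0 were higher and 6 did not pass, with a median of -0.77. Among all features the shares were 15.0% lower and 10.2% higher. Among the 15 markers Tnni3 (cardiac troponin I) differed by -1.19, Tcap (telethonin) by -1.70 and Pln (phospholamban) by -2.34, while Myh6 (-0.30) and Myl2 (-0.23) did not pass. The summed level of the 15 was 5780 to 6669 in KO hearts, against 7378 to 10822 in control hearts. Their mean log2 level relative to the control mean was -1.04, -0.81 and -0.73 in KO hearts, against -0.04, -0.34, 0.24 and 0.14 in control hearts. When arrays were scaled to these markers in place of the 75th percentile, a setting added after seeing the data, the median of all features moved to 0.80. Scn4b then differed by -1.42 (adjusted p = 0.0251) and still passed. Cacna1c (-0.04), Kcnq1 (-0.15), Kcnh2 (-0.32) and the dimmer Hcn2 probe (-0.36) did not pass. Cacna2d1 (0.62, adjusted p = 0.0216) and the brighter Hcn2 probe (0.81, adjusted p = 0.00628) were higher in KO on that scale, as were most features.

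**Figure D4:**
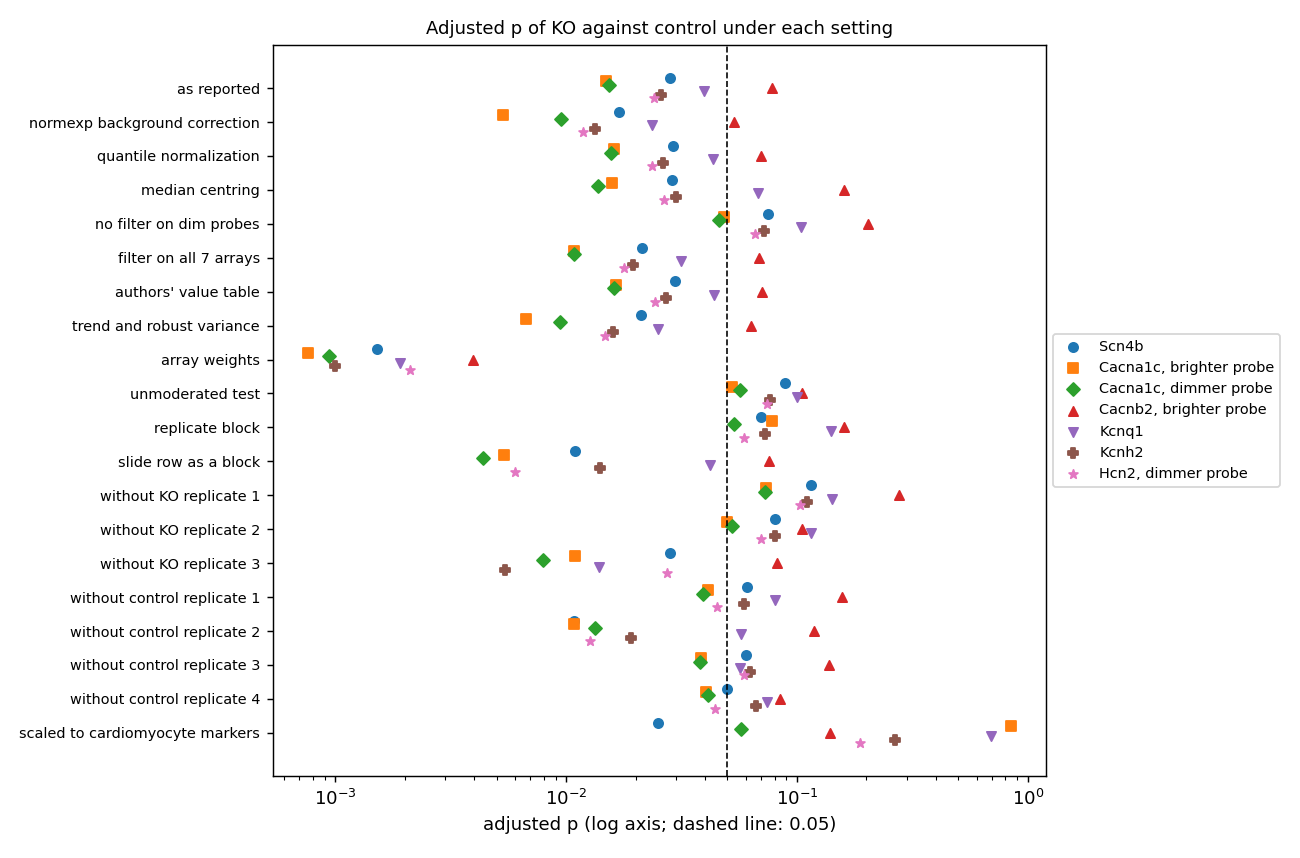
Adjusted p (x axis, log scale, dashed line at 0.05) of KO against control for 7 probes, under each processing setting down the page. The probes of Scn4b, Cacna1c, Kcnq1, Kcnh2 and the dimmer probe of Hcn2 lie left of the line as reported. All of these move right of it without KO heart 1, and only Scn4b stays left of it when arrays are scaled to cardiomyocyte markers.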

How the data were processed

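Groups were taken from the titles, and each heart was taken as a separate animal. The limma p-values set each difference against the spread between these hearts, with variances moderated over all features. The design text speaks of 4 KO hearts, of which 1 was not analysed here. Per the file headers, arrays were read with Agilent Feature Extraction 11.0.1.1 (mm9 design), and the deposited files hold the background-subtracted intensity of 62976 spots, of which 3671 are control spots. The deposited value table holds log2 values whose target scale is not given in the sources used here; 100% of its rows have a median of 0 over the 7 arrays, its column medians are 0 except for -0.00212 in KO heart 2 and 0.0079 in control heart 4, and its columns correlated with the scanner values at 0.986 to 0.998 over 15000 bright probes, so higher means more signal. It was used as an alternative.

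The log2 of each intensity, less the 75th percentile of its array, was used; control and outlier spots were left out. Spots of 1 probe were averaged. A probe was used (26571 of 55681) if 3 or more arrays of either group flagged it as well above background. Names came from RefSeq accessions (28026 probes with 1 symbol, 27655 with none), and the brightest kept probe stood for a gene. Second probes were tested with every kept probe as a feature. Differences are KO minus control, from limma 3.58.1 (lmFit, eBayes) under R 4.3.3. The script was tested on simulated data. A gene not above background in a group has only a bound there, given as at least N-fold against the mean, per array, of the higher of its own signal and the lowest signal well above background.

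The channel genes, the lists and the tests were chosen with earlier results of these data known. From each related list the text names every gene that passed and the 3 with the lowest p that did not. Some genes of these lists are not reported here and are left out of the lists' counts. Alternatives were median centring, quantile normalization, normexp correction (offset 50), the filter dropped or required on all 7 arrays, the value table, the mean over probes, every kept probe as a feature, trend and robust variance, array weights, an unmoderated test, blocks by replicate number or slide row, and each heart left out.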

Additional observations from a re-analysis of the deposited data

Results flagged for a closer look

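In control hearts, 2 channel gene values stood apart from the other 3 by more than Dixon's 95% critical ratio for groups of 4. Kcnh2 in control heart 2 was at 0.61 (log2 signal over the 75th percentile), with the nearest control at 1.11 and a gap of 0.870 of the group's range. Without that heart Kcnh2 still passed as lower in KO. Kcne1 in control heart 4 was at -4.87, with the nearest control at -5.95 and a gap of 0.862 of the range, but it was not well above background there. Chance flags about 1 in 20 groups, and the KO hearts, being 3, were not examined in this way.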

How the results depend on the processing

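Scn4b, both Cacna1c probes, Kcnq1, Kcnh2 and the dimmer Hcn2 probe were lower in KO under every alternative run, and which of them passed varied. The 4 channel genes lower in KO became 1 without the filter on dim probes, 0 in the unmoderated test, 0 with the replicate number as a block, and 1 (with 2 higher) when scaled to cardiomyocyte markers; leaving out 1 heart gave 0 to 4. Over all features, 5640 passed, 3356 lower and 2284 higher. These counts were 1415, 975 and 440 without the filter, 11997, 6638 and 5359 with array weights, 90, 65 and 25 unmoderated, and 15515, 499 and 15016 when scaled to cardiomyocyte markers. Slide row as a block gave 3585 higher, and leaving out 1 heart gave 69 to 6971, 49 to 4128 and 20 to 2843. Deviations of same-numbered hearts correlated at 0.18, -0.22 and -0.20. Hearts with unlike numbers were not compared, so whether the numbers pair the hearts is not settled. With the replicate block 9 features passed, 3 lower and 6 higher.

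Apart from the marker scale, direction turned only for the small differences of the brighter Hcn2 probe and the dimmer Cacna2d1 and Cacnb2 probes. The brighter Hcn2 probe gave 0.0207 with quantile normalization, 0.0216 with the value table, 0.0156 with the replicate block, 0.0379 with median centring, 0.0145 with array weights, 0.81 on the marker scale and -0.14 to 0.0156 with 1 heart left out. The dimmer Cacna2d1 probe gave -0.0105 with the replicate block and -0.11 to 0.0896 with 1 heart left out, and the dimmer Cacnb2 probe -0.31 to 0.0331. On the marker scale, where the median feature is at 0.80, these also turned: Cacnb2 0.41 and 0.70 (dimmer probe), Cacna2d1 0.62, Akap9 0.48, Cacna1a 0.56, Cacna1i 0.38, Gpd1l 0.38, Kcne1l 0.34, Kcnh4 0.33 and Scn4a 0.46. The marker scale subtracts 1 value per array, so it moves every log2 difference up by the same amount, and these turns follow from that. The cause of the other turns was not tested. Dim signal limits Kcne1, Hcn4, Scn2b and Cacng6.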

Other observations

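The marker counts below stand beside 15.0% of all features lower in KO and 10.2% of all features higher. Among markers of other cells in the apex, 6 of 7 measured neutrophil genes were higher in KO and 1, Csf3r, did not pass. Of the 6, Cxcr2, Mmp9, Fpr1 and Fpr2 passed the filter through KO hearts alone, so the count of 6 is not independent of that filter. Fpr1 and Fpr2 were well above background in 2 of 4 control hearts. Cxcr2 and Mmp9 were so in 0 of 4, and were at least 4.69-fold and at least 2.40-fold higher in KO. With Cxcr2 and Mmp9 at their bounds the median log2 difference of the 7 was 3.04, and it rests largely on genes kept through KO hearts. Of 11 macrophage genes 4 were higher and 0 lower (median 0.53). The summed neutrophil level was 102 to 178 in KO hearts, against 114 to 177 in control hearts, since Csf3r, a bright gene, makes up most of it. Of 10 fibroblast genes 1 was lower and 1 higher (median 0.005), of 10 endothelial genes 1 was lower (median -0.27), and of 9 smooth muscle and pericyte genes 2 were lower (median -0.28). Atrial markers had 1 lower of 5 measured (median 0.29), with Sln and Myl7 not measured. The lower one, Kcnj3, was well above background in 2 of 3 KO hearts and 4 of 4 control hearts. Kcnj3 thus passed the filter through control hearts alone. Neuron and glia markers had 1 lower and 1 higher of 7 (median -0.15), and skeletal muscle markers 0 of 4 (median -0.22). Their part in the channel results was not tested.

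Over the 7 hearts, the named genes whose log2 levels ran most like each channel gene (Pearson's r over 13088 genes without missing values, as a description) were Mtrf1 (0.997) for Scn4b, Wbp2 (0.998) for Cacna1c, Abhd6 (0.972) for Cacnb2, Tbc1d17 (0.970) for Cacna2d1, Mindy2 (0.995) for Kcnq1, Cep128 (0.996) for Kcnh2 and Olfr1115 (0.974) for Hcn2. The points share the same arrays and the same split into groups.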
